A study of Mus musculus with 3 samples.

Results

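The tumour necrosis factor (TNF) superfamily was described in visceral adipose fibroblasts of the mouse given oncostatin M or transforming growth factor beta 1. Its members were taken as all protein-coding genes of the deposited count table whose symbol is Tnfsf or Tnfrsf followed by a number and optional letters, which gave 31 genes, 11 ligands and 20 receptors, of 21970 protein-coding genes and 56748 genes in all. The symbol decided membership and no measured value did. Relatives with other names, such as Tnf itself, Fas, Cd40 and Ltbr, fall outside it and are given as separate lists.

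The libraries were 1 given mouse oncostatin M as a recombinant protein at 3 ng/mL (Osm), 1 given human transforming growth factor beta 1, also recombinant and at 3 ng/mL (TGF-beta1), both for 24 h, and 1 control (vehicle), for which no time is given. All came from wild-type mice fed a high-fat diet, and the cells were the part of the stromal vascular fraction left after magnetic removal of cells with CD45, CD31 or Ter119. The sources used here do not say whether animals were pooled. With 1 library per condition no difference has a replicate check, no p-value is given, and the 95% intervals in brackets are exact but reflect counting error alone.

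TNF superfamily ligands are mostly membrane proteins that act as trimers, often after being shed, and their receptors fall into classes by what lies inside the cell. Receptors with a death domain can start cell death or NF-kB signalling, receptors without one recruit TRAF adaptors, and decoy receptors bind a ligand without signalling. In obese fat, TNF is best known as a macrophage product that acts on adipocytes and stromal cells, and fibroblasts are among the cells that carry its receptors.

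The Osm, TGF-beta1 and vehicle libraries held 17319872, 18533741 and 18336068 counted reads. Levels are given as CPM, read counts scaled by library size, and between genes as the deposited FPKM, which is per length. Where no read was counted, the level was read as up to 3 counts, which is 0.173 CPM (Osm) or 0.163 CPM (the other libraries). The exact 95% interval of such a count reaches further, to 0.213 CPM (Osm) or 0.200 CPM (the other libraries). The 10 fibroblast markers summed to 20141 CPM with Osm, 22768 CPM with TGF-beta1 and 19955 CPM with vehicle. With TGF-beta1, 7 of the 10 lay below vehicle and 3 above, so the sum does not stand for each marker. Col1a1 was at 4023, 8039 and 4285 CPM with Osm, TGF-beta1 and vehicle, Dcn at 1757, 824 and 1984 CPM and Pi16 at 15.4, 74.5 and 17.0 CPM. Among 15 leukocyte markers, Ptprc, the gene of CD45, had 2 counts with Osm and 0 in both other libraries, and 5 of the 15, among them Cd3e and Itgam, were at 0 in all 3. The leukocyte list summed to 39.8 CPM with Osm, 19.6 CPM with TGF-beta1 and 41.5 CPM with vehicle, of which Kit, Csf1r and Cd68 made up 39.0, 18.4 and 39.8 CPM. The 9 endothelial markers summed to 45.8, 37.9 and 56.6 CPM, the 8 mural markers to 51.5, 49.5 and 52.0 CPM and the 8 mesothelial markers to 41.9, 51.7 and 43.2 CPM in the same order of libraries. Tek made up 38.9, 34.4 and 48.5 CPM of the endothelial sums and Wt1 36.1, 43.4 and 37.1 CPM of the mesothelial sums, in that order. The 7 erythroid markers reached at most 0.109 CPM and the 7 mature adipocyte markers at most 11.5 CPM, of which Lipe made up 11.1 CPM. Their part in the results below was not tested.

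Of the 31 members, 17 reached 1 CPM in at least 1 library, 11 receptors and 6 ligands. The other 14 had between 0 and 7 counts in any library, and Tnfsf4, Tnfrsf13b and Tnfrsf17 had none at all. The family was mainly a set of receptors. The summed deposited FPKM of the 20 receptors was 297.4 with Osm, 289.1 with TGF-beta1 and 268.6 with vehicle, and that of the 11 ligands was 20.5, 15.6 and 20.1. Summed over the whole family, the level was 317.9 FPKM with Osm, 304.7 FPKM with TGF-beta1 and 288.7 FPKM with vehicle.

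**Figure D1:**
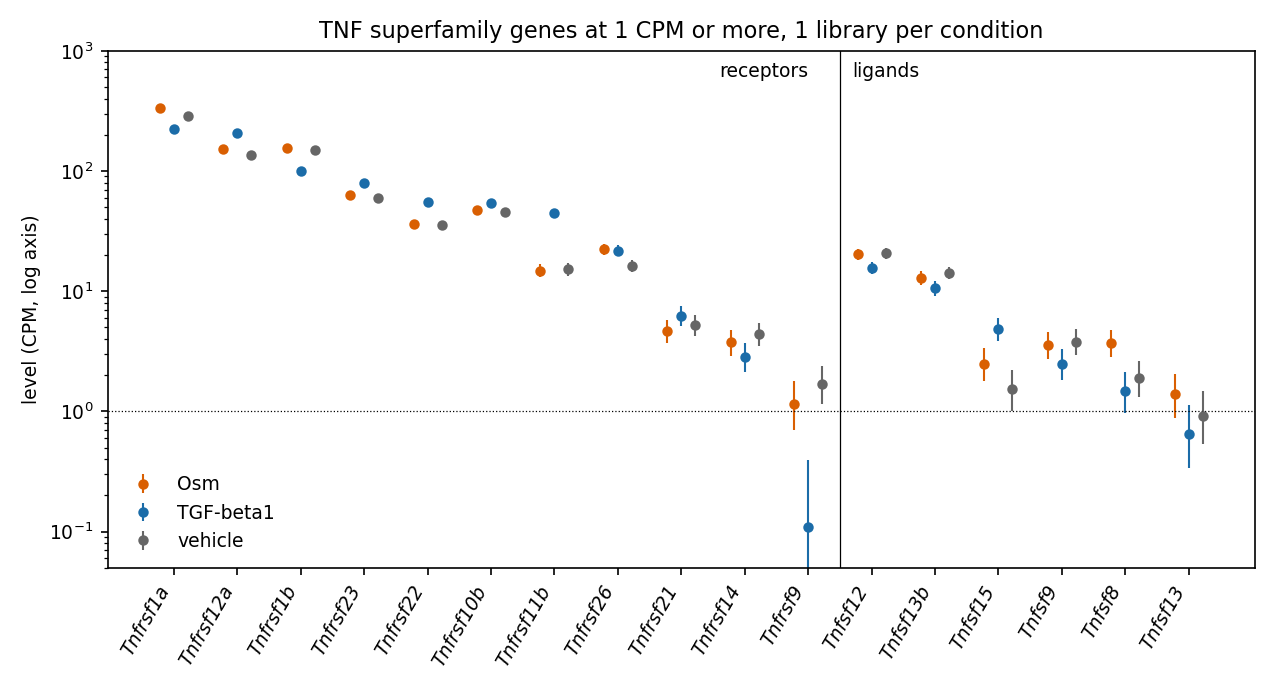
Level of the 17 TNF superfamily genes that reached 1 CPM (dotted line) in at least 1 library, on a log axis, for Osm, TGF-beta1 and vehicle from left to right within each gene. Points are single libraries and bars are exact 95% counting intervals. Levels ran from 334.5 CPM for Tnfrsf1a with Osm to 0.109 CPM for Tnfrsf9 with TGF-beta1, where the bar reaches past the lower edge.

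A gene was said to pass the 2-fold rule where its CPM ratio was at least 2-fold and the counting interval left out a ratio of 1. With TGF-beta1, Tnfrsf11b and Tnfsf15 passed upward and Tnfrsf9 downward, and the other 14 of the 17 did not pass. Over all 13712 genes tested, 2.27% passed upward and 4.79% downward, 7.06% in all. With Osm none of the 17 passed, where 0.948% of all genes passed upward and 0.649% downward, 1.6% in all. Among genes at 5 CPM or more in at least 1 library, where 3.99% of all genes passed with TGF-beta1 and 0.213% with Osm, Tnfrsf11b was the one member past the rule. A counting interval that left out 1 was found for 14 of the 17 with TGF-beta1, beside 52.0% of all genes, and for 4 of the 17 with Osm, beside 21.5%. Such an interval narrows as counts rise. Among all genes at 5 CPM or more in at least 1 library the share was 58.4% with TGF-beta1 and 23.7% with Osm. Both comparisons share the vehicle library, so their ratios are not independent. The median log2 ratio of the 17 was -0.37 with TGF-beta1, beside 0.01 for all genes tested, and 0.05 with Osm, beside 0.00. With TGF-beta1, 7036 of all 13712 genes tested had a log2 ratio above 0. The 11 receptors had a median of 0.26 with TGF-beta1, with 7 above 0, and the 6 ligands had a median of -0.40, with 1 above 0. These counts leave out the 14 members below the filter, and Tnfrsf9 and Tnfsf13 passed the filter without the TGF-beta1 library.

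**Figure D2:**
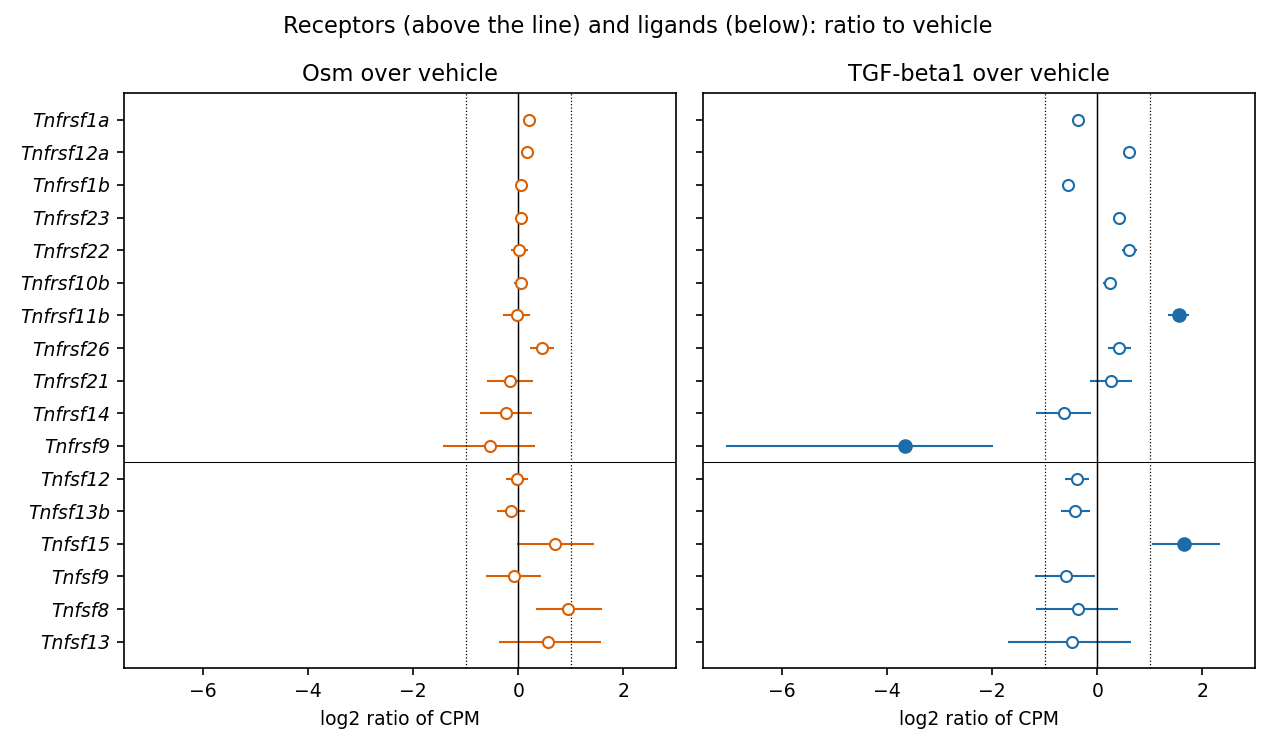
Log2 ratio of CPM for the same 17 genes, Osm over vehicle at left and TGF-beta1 over vehicle at right, with exact 95% counting intervals. Filled points passed the 2-fold rule (dotted lines at 1 and -1). On the right Tnfrsf11b and Tnfsf15 lie above 1 and Tnfrsf9 lies at -3.66, while on the left every point lies between -0.54 and 0.95.

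Both TNF receptors were lower with TGF-beta1, within 2-fold. Tnfrsf1a, the widely expressed receptor with a death domain (ENSMUSG00000030341, chromosome 6, 125326325 to 125339447 on the plus strand, build mm39), was at 334.5 CPM with Osm, 222.6 CPM with TGF-beta1 and 288.6 CPM with vehicle. It was lowest in the TGF-beta1 library, 1.30-fold lower than vehicle (1.24 to 1.35), and highest in the Osm library, 1.16-fold higher than vehicle (1.12 to 1.20). Tnfrsf1b, the TNF receptor without a death domain (chromosome 4, 144940033 to 144973440, minus strand), was at 154.1 CPM with Osm, 100.3 CPM with TGF-beta1 and 148.1 CPM with vehicle. It too was lowest with TGF-beta1, 1.48-fold lower (1.39 to 1.57), while the Osm and vehicle libraries lay within counting error (1.04-fold higher with Osm, 0.986 to 1.10). Within each library Tnfrsf1a exceeded Tnfrsf1b per length, with an FPKM ratio of 3.20 with Osm, 3.27 with TGF-beta1 and 2.87 with vehicle. Their ligand gene Tnf had 2, 5 and 1 counts in the Osm, TGF-beta1 and vehicle libraries, too few for a comparison.

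Tnfrsf12a went the other way with TGF-beta1. It encodes Fn14, a small receptor without a death domain that binds the ligand TWEAK and signals through TRAFs (ENSMUSG00000023905, chromosome 17, 23894419 to 23896442, minus strand). Its level was 152.7 CPM with Osm, 206.4 CPM with TGF-beta1 and 136.2 CPM with vehicle. It was highest in the TGF-beta1 library, 1.51-fold higher than vehicle (1.44 to 1.59), with Osm 1.12-fold higher (1.06 to 1.18), neither past the 2-fold rule. The order of the 2 leading receptors per length differed between libraries. Tnfrsf12a was at 107.0 FPKM with TGF-beta1 and Tnfrsf1a at 86.1 FPKM, while with Osm the values were 78.8 and 128.6 FPKM and with vehicle 70.6 and 111.4 FPKM. Tnfrsf12a made up 35.1% of the summed FPKM of the family with TGF-beta1, 24.8% with Osm and 24.4% with vehicle, and Tnfrsf1a 28.3%, 40.5% and 38.6%.

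**Figure D3:**
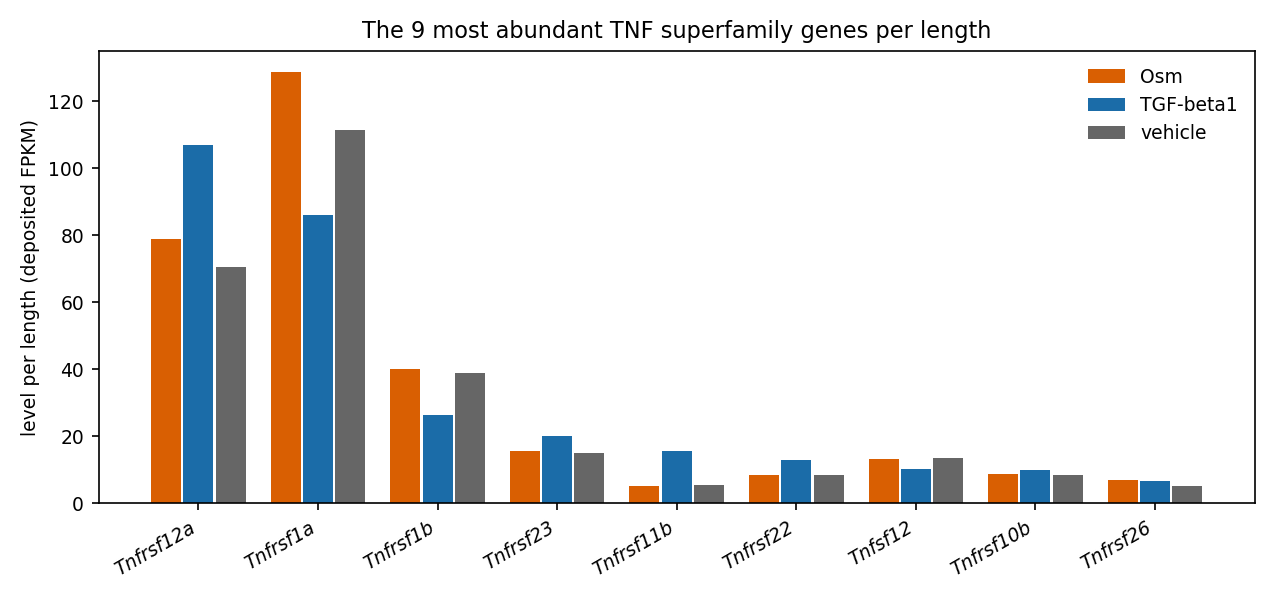
Deposited FPKM, a level per gene length, of the 9 most abundant family genes ordered by their level with TGF-beta1; bars are single libraries, Osm, TGF-beta1 and vehicle from left to right. Tnfrsf12a stands first with TGF-beta1 (107.0 FPKM) and Tnfrsf1a first with Osm (128.6 FPKM) and with vehicle (111.4 FPKM).

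Promoter sequences are shown for Tnfsf15 and Tnfrsf9, the members past the 2-fold rule against vehicle that had one listed. Also shown are those of Tnfsf8, the neighbour of Tnfsf15 with another order of levels, and of Tnfrsf12a, the leading receptor with TGF-beta1. The 250 bases before the annotated start were taken from RefSeq (build GRCm38.p6), 5′ to 3′ on the gene's strand. RefSeq listed a promoter for 24 of the 31 members. Capitals mark matches, on either strand, to any of 6 motifs. The Smad binding element was searched as CAGAC. The AP-1 site was searched as TGANTCA. The Stat site was searched as TTCNNNGAA. The TEAD site was searched as GGAATG. The TATA box was searched as TATAAA, and the kappa B site by its usual consensus. Apart from the 2 kappa B matches of Tnfrsf9, no matches in these windows overlap.
Tnfsf15, chr4:63745060-63745309, minus strand: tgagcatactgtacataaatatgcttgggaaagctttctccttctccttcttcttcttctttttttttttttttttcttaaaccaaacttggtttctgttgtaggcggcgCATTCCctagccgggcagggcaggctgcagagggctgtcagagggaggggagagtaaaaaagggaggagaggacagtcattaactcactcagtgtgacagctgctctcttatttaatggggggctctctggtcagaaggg
Tnfrsf9, chr4:150927749-150927998, plus strand, the downstream of its 2 listed starts: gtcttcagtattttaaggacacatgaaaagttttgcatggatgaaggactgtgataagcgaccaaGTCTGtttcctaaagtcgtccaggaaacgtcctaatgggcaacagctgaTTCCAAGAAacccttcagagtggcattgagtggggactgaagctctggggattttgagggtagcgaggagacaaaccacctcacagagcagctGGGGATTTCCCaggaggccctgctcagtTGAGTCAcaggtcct
Tnfsf8, chr4:63861285-63861534, minus strand: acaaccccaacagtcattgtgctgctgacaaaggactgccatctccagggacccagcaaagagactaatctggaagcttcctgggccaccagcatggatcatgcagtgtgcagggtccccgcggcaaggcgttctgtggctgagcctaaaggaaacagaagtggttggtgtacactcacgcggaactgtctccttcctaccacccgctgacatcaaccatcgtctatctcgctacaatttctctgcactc
Tnfrsf12a, chr17:23677450-23677699, minus strand: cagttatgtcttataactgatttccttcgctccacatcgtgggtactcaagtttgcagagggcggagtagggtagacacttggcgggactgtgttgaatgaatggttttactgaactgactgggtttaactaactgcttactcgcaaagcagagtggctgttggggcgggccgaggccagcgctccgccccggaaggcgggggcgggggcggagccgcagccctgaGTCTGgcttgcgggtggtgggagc

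The Tnfsf15 window held a TEAD match starting 140 bases before the start, and a TEAD match was in 12.6% of 32536 promoter windows of the same length. The Tnfrsf12a window held a Smad match 24 bases before the start, a motif found in 42.2% of windows. The Tnfrsf9 window held a Smad match, a Stat match 136 bases before the start, 2 overlapping kappa B matches from 43 bases before it and an AP-1 match 15 bases before it. Kappa B, Stat and AP-1 matches were in 3.92%, 7.04% and 6.73% of windows. The upstream Tnfrsf9 start and the Tnfsf8 window held no match to any of the 6, which says only that these letters are not in those windows. These matches describe the sequence and were not tested against the levels.

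Tnfrsf11b was the most abundant member past the 2-fold rule. It encodes osteoprotegerin, a secreted decoy that binds the ligands RANKL (Tnfsf11) and TRAIL (Tnfsf10) (ENSMUSG00000063727, chromosome 15, 54114015 to 54141880, minus strand). Counts were 257 with Osm, 819 with TGF-beta1 and 279 with vehicle, which is 14.8, 44.4 and 15.2 CPM. The TGF-beta1 library stood apart and the other two lay together. The level was 2.93-fold higher with TGF-beta1 than with vehicle (2.56 to 3.37), and with Osm it was within counting error of vehicle (1.02-fold lower, 0.861 to 1.22). In the direct comparison it was 3.00-fold lower with Osm than with TGF-beta1 (2.60 to 3.47). No other annotated gene overlaps it and none of its 50-base windows occurred in a transcript of another gene. Its rank by FPKM in the family was 5 with TGF-beta1, 9 with Osm and 8 with vehicle. Both ligands it binds were near 0. Tnfsf11 had 6 counts with Osm, 1 with TGF-beta1 and 0 with vehicle, and Tnfsf10 had 0, 1 and 3 in the same order. The signalling receptor for RANKL, Tnfrsf11a, had 1 count with Osm and 0 in the other libraries.

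The other TRAIL receptors were all above the filter, each higher with TGF-beta1 than with vehicle and none past the 2-fold rule. Tnfrsf10b, the mouse TRAIL receptor with a death domain (chromosome 14, 70004921 to 70021860, plus strand), was at 47.4 CPM with Osm, 54.0 CPM with TGF-beta1 and 45.7 CPM with vehicle, 1.18-fold higher with TGF-beta1 (1.08 to 1.30). Tnfrsf22 and Tnfrsf23, decoy TRAIL receptors of the mouse, lie beside their relative Tnfrsf26 on the minus strand of chromosome 7, between 143161396 and 143239609. Tnfrsf23 was at 62.5 CPM with Osm, 79.5 CPM with TGF-beta1 and 59.9 CPM with vehicle, 1.33-fold higher with TGF-beta1 (1.23 to 1.44). Tnfrsf22 was at 36.2, 54.7 and 35.8 CPM in the same order, 1.53-fold higher with TGF-beta1 (1.39 to 1.69). For both decoys the Osm library lay within counting error of vehicle (1.04-fold, 0.958 to 1.14, for Tnfrsf23 and 1.01-fold, 0.906 to 1.13, for Tnfrsf22).

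Tnfrsf26 differed from its neighbours. It was at 22.3 CPM with Osm, 21.8 CPM with TGF-beta1 and 16.3 CPM with vehicle, so both ligand libraries lay above vehicle. It was 1.37-fold higher with Osm (1.17 to 1.60) and 1.33-fold higher with TGF-beta1 (1.15 to 1.55), and the Osm and TGF-beta1 libraries lay within counting error of each other (1.03-fold, 0.889 to 1.18). Tnfrsf22 and Tnfrsf23 share sequence. In the GENCODE M21 transcripts, 27.4% of the 50-base windows of Tnfrsf22 and 19.3% of those of Tnfrsf23 occurred in a transcript of another gene, mostly each other, against 1.89% for Tnfrsf26. The sources used here do not say how such reads were counted, so the split between Tnfrsf22 and Tnfrsf23 is uncertain. Summed over the 3 genes, the level was 121.0 CPM with Osm, 156.0 CPM with TGF-beta1 and 112.0 CPM with vehicle, 1.39-fold higher with TGF-beta1 (1.32 to 1.47) and 1.08-fold higher with Osm (1.02 to 1.15). The noncoding gene E230032D23Rik overlaps all 3 on the opposite strand and had 26 counts with Osm, 23 with TGF-beta1 and 12 with vehicle.

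Tnfrsf9 encodes the T cell costimulatory receptor 4-1BB (ENSMUSG00000028965, chromosome 4, 150999019 to 151030559, plus strand), and it was the only one of the 17 to pass the 2-fold rule downward with TGF-beta1. It had 20 counts with Osm, 2 with TGF-beta1 and 31 with vehicle, which is 1.15, 0.109 and 1.68 CPM. The TGF-beta1 library was the low one. The level was 12.6-fold lower with TGF-beta1 than with vehicle, with a wide interval (3.95 to 133.9), and 1.45-fold lower with Osm, within counting error (0.807 to 2.71). Camta1 runs across it on the other strand. Its level was 4.84 CPM with Osm, 3.96 CPM with TGF-beta1 and 4.29 CPM with vehicle, above Tnfrsf9 in all 3, and no source says whether strand was used when reads were assigned. Ptprc was at 2, 0 and 0 counts and Cd3e and Cd3g were at 0 in all 3 libraries. Over all genes tested, 4.79% passed the rule downward with TGF-beta1. Of the 4 leukocyte list genes tested, 2 did. These were Kit with 414, 83 and 412 counts and Cd68 with 116, 68 and 164 counts in Osm, TGF-beta1 and vehicle. The other 2 did not pass, Csf1r with 146, 188 and 156 counts and Lyz2 with 10, 15 and 19 in the same order. Their part in the level of Tnfrsf9 was not tested. In bulk RNA fewer cells of a type and less RNA per cell cannot be told apart.

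The remaining 2 receptors above the filter were low. Tnfrsf21, a death-domain receptor also called DR6, was at 4.67 CPM with Osm, 6.24 CPM with TGF-beta1 and 5.22 CPM with vehicle, all within counting error of each other. Tnfrsf14, which binds the ligand LIGHT, was at 3.75 CPM with Osm, 2.82 CPM with TGF-beta1 and 4.40 CPM with vehicle, 1.56-fold lower with TGF-beta1 (1.09 to 2.25). Receptors best known from lymphocytes were close to 0, with Tnfrsf4 at 7, 6 and 4 counts, Tnfrsf18 at 3, 2 and 4 and Tnfrsf8 at 3, 2 and 0 with Osm, TGF-beta1 and vehicle. Tnfrsf18 shares 18.7% of its windows with Gm16008, a noncoding gene on the opposite strand that had 70, 45 and 49 counts. Tnfrsf25, the receptor for the ligand TL1A, had 2, 6 and 2 counts, Tnfrsf19 had 0, 1 and 1, and Tnfrsf13c had 1, 0 and 0.

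Among the ligands, Tnfsf15 alone passed the 2-fold rule against vehicle. It encodes TL1A, a ligand first studied in endothelium that costimulates T cells (ENSMUSG00000050395, chromosome 4, 63642840 to 63663350, minus strand). Counts were 43 with Osm, 89 with TGF-beta1 and 28 with vehicle, which is 2.48, 4.83 and 1.52 CPM. TGF-beta1 was highest, Osm next and vehicle lowest. The level was 3.14-fold higher with TGF-beta1 (2.05 to 5.04) and 1.62-fold higher with Osm, where the interval just included 1 (0.989 to 2.72). The 9 endothelial markers summed to 45.8 CPM with Osm, 37.9 CPM with TGF-beta1 and 56.6 CPM with vehicle. Of the 3 tested, Vwf with 84, 29 and 114 counts and Cdh5 with 18, 9 and 22 counts passed the rule downward with TGF-beta1. Tek with 675, 634 and 892 counts did not pass. Over all genes tested 4.79% passed downward, and Cdh5 reached 1 CPM with Osm and vehicle only. Below the filter, Kdr had 4, 12 and 5 counts and Pecam1 3, 5 and 2, and 2 of the 9 were at 0 in all 3 libraries. Their part in the level of Tnfsf15 was not tested.

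Tnfsf8, the ligand of the receptor CD30, is the next family gene along the same strand (chromosome 4, 63749545 to 63779584), and its order across libraries differed. It had 64 counts with Osm, 27 with TGF-beta1 and 35 with vehicle, which is 3.69, 1.46 and 1.90 CPM. The Osm library was the high one. Against vehicle the level was 1.93-fold higher with Osm (1.26 to 3.02), short of the 2-fold rule, and 1.29-fold lower with TGF-beta1, within counting error (0.764 to 2.23).

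The most abundant ligand was Tnfsf12, which encodes TWEAK (chromosome 11, 69577076 to 69586675, minus strand). It was at 20.2 CPM with Osm, 15.7 CPM with TGF-beta1 and 20.6 CPM with vehicle, 1.31-fold lower with TGF-beta1 (1.12 to 1.53), and the Osm and vehicle libraries lay within counting error. Beside it, Tnfsf13, the B cell factor APRIL, had 24 counts with Osm, 12 with TGF-beta1 and 17 with vehicle, which is 1.38, 0.651 and 0.924 CPM, and reached 1 CPM through the Osm library alone. The annotated readthrough gene Tnfsfm13 spans both and had 28, 13 and 22 counts. Its transcripts held 46.8% of the 50-base windows of Tnfsf12 and, together with those of the antisense gene Tnfsf13os, 57.3% of those of Tnfsf13, so the values of both genes are uncertain. Summed, the 3 genes stood at 23.2 CPM with Osm, 17.1 CPM with TGF-beta1 and 22.7 CPM with vehicle, 1.02-fold higher with Osm (0.889 to 1.18) and at 0.753 of the vehicle level with TGF-beta1 (0.648 to 0.873).

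Tnfsf13b, which encodes the B cell survival factor BAFF, was at 12.9 CPM with Osm, 10.6 CPM with TGF-beta1 and 14.2 CPM with vehicle, 1.33-fold lower with TGF-beta1 (1.10 to 1.61). Tnfsf9, the ligand of 4-1BB, was at 3.57 CPM with Osm, 2.50 CPM with TGF-beta1 and 3.80 CPM with vehicle, 1.52-fold lower with TGF-beta1 (1.04 to 2.26). For both, Osm and vehicle lay within counting error. The noncoding gene Gm11110 overlaps Tnfsf9 on the opposite strand, with 42, 29 and 47 counts against 62, 46 and 70 for Tnfsf9. Ligands below the filter were Tnfsf18 at 6, 3 and 3 counts and Tnfsf14, which encodes LIGHT, at 2, 0 and 0, besides Tnfsf10, Tnfsf11 and Tnfsf4.

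Set beside their known partners, both sides were above the filter for TWEAK with Fn14 and for 4-1BB ligand with 4-1BB. For the latter pair this holds with Osm and vehicle only, since Tnfrsf9 had 2 counts, 0.109 CPM, with TGF-beta1. Neither side was above the filter for Tnfsf11 with Tnfrsf11a, Tnfsf18 with Tnfrsf18 or Tnfsf4 with Tnfrsf4. Tnfrsf12a exceeded Tnfsf12 per length in every library, by an FPKM ratio of 5.92 with Osm, 10.3 with TGF-beta1 and 5.19 with vehicle. Tnfsf13b and Tnfsf13 were measured while their receptors Tnfrsf13b and Tnfrsf17 were at 0 in all 3 libraries. Tnfsf15 and Tnfsf8 were measured while Tnfrsf25 and Tnfrsf8 had at most 6 and 3 counts. Conversely Tnfrsf10b, Tnfrsf22, Tnfrsf23, Tnfrsf14, Tnfrsf1a and Tnfrsf1b were measured with at most 5 counts of their ligands Tnfsf10, Tnfsf14 and Tnf. These are RNA levels in a population depleted of leukocytes and say nothing of ligand from other cells.

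**Figure D4:**
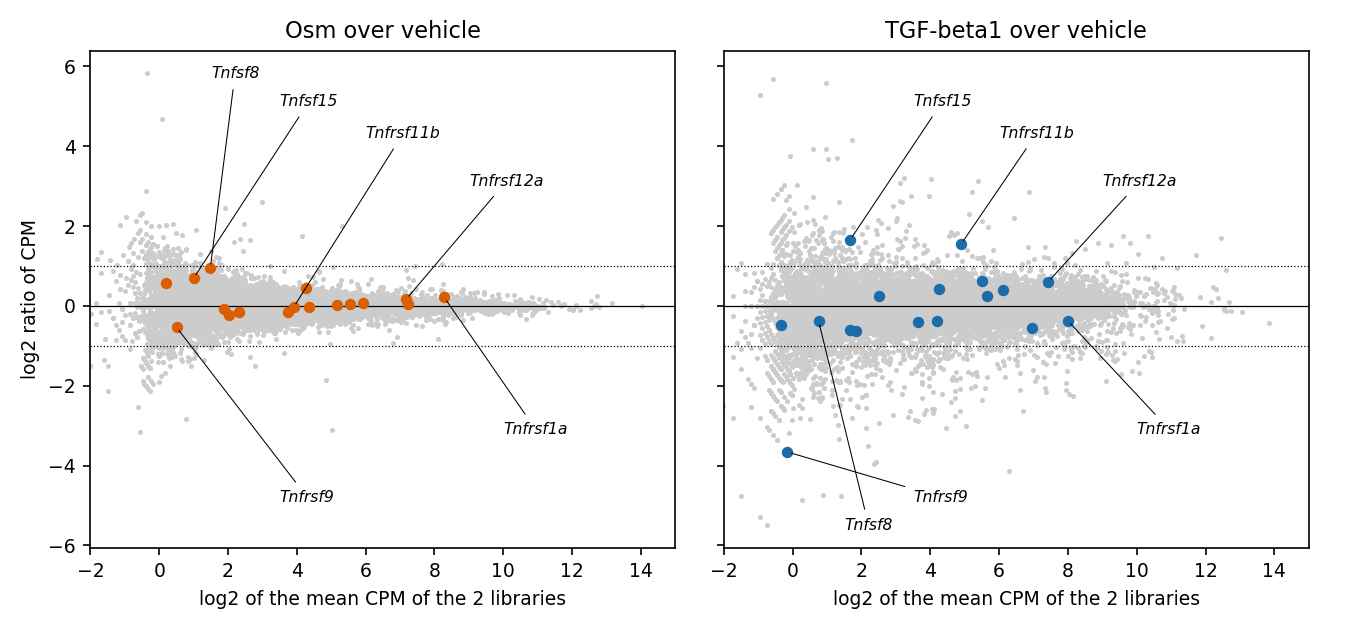
Log2 ratio of CPM against the log2 mean CPM of the 2 libraries compared, for all 13712 genes tested (grey) and the 17 family genes (coloured), Osm over vehicle at left and TGF-beta1 over vehicle at right; dotted lines mark 2-fold. The family genes at left lie inside the dotted lines, and at right Tnfsf15, Tnfrsf11b and Tnfrsf9 lie outside them.

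In the direct comparison of Osm with TGF-beta1, 3 members passed the rule upward, Tnfrsf9, Tnfsf8 and Tnfsf13, and 1 downward, Tnfrsf11b. Over all genes, 5.07% passed upward and 2.42% downward, 7.49% in all. Tnfsf13 passed the filter through the Osm library alone and Tnfrsf9 without the TGF-beta1 library, so the count of 3 is partly set by the filter. At 5 CPM or more in at least 1 library Tnfrsf11b was again the one member past the rule, beside 4.18% of all genes. The counting interval left out 1 for 12 of the 17, beside 51.2% of all genes and 57.0% of those at 5 CPM or more. Tnfrsf9 was 8.65-fold higher with Osm (2.58 to 93.7), Tnfsf8 2.49-fold (1.58 to 4.11) and Tnfsf13 2.08-fold (1.02 to 4.66). These ratios rest on 20 and 2 counts for Tnfrsf9, 64 and 27 for Tnfsf8 and 24 and 12 for Tnfsf13, Osm and TGF-beta1. Short of the rule, Tnfrsf1a and Tnfrsf1b were higher with Osm by 0.59 and 0.62 on the log2 scale (ratios of 1.44 to 1.56 and 1.45 to 1.63), while Tnfrsf22 was 1.51-fold lower (1.37 to 1.67), Tnfrsf12a 1.35-fold lower (1.29 to 1.42) and Tnfsf15 1.94-fold lower (1.34 to 2.87).

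Of 8 receptors of the family that carry other names, 5 were tested and none passed the rule in either comparison with vehicle, beside 1.6% of all genes with Osm and 7.06% with TGF-beta1. Ltbr, the lymphotoxin beta receptor, was at 109.5 CPM with Osm, 89.1 CPM with TGF-beta1 and 102.0 CPM with vehicle, and Eda2r, a receptor for an ectodysplasin form, at 38.9, 33.1 and 41.4 CPM. Of 7 other ligands only Eda, ectodysplasin, was tested, at 7.38 CPM with Osm, 5.81 CPM with TGF-beta1 and 7.28 CPM with vehicle, and Cd40lg, Fasl and Cd70 had 0 counts in all 3.

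Of 29 receptor adaptors, TRAFs and ubiquitin enzymes 27 were tested, of 11 death signalling genes all 11 and of 13 NF-kB subunits and inhibitors all 13, and none passed the 2-fold rule with Osm or with TGF-beta1. Over all genes tested, 1.6% passed with Osm and 7.06% with TGF-beta1 in either direction, and nothing particular to these lists is read from the counts. The adaptors had a median log2 ratio of -0.0037 with Osm and -0.03 with TGF-beta1. Single adaptors ran from -0.75 to 0.21 with Osm and from -0.69 to 0.86 with TGF-beta1. Tab2, which links TRAFs to the kinase Tak1, was at 118.4 CPM with Osm, 144.6 CPM with TGF-beta1 and 126.6 CPM with vehicle. Traf7 was at 110.4, 120.1 and 113.5 CPM. In death signalling Cflar, the inhibitor of caspase activation at these receptors, was at 195.7 CPM with Osm, 214.5 CPM with TGF-beta1 and 193.6 CPM with vehicle, and Bax at 77.4, 75.7 and 72.6 CPM. Of all 13712 genes tested, 6932 had a log2 ratio above 0 with Osm and 7036 with TGF-beta1. The NF-kB list had 11 of 13 above 0 with Osm, with a median of 0.11, and 6 of 13 above 0 with TGF-beta1, with a median of -0.03. Its most abundant members were Nfkb1 at 91.0 CPM with Osm, 90.2 CPM with TGF-beta1 and 85.9 CPM with vehicle, and Rela at 88.2, 79.0 and 80.8 CPM.

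Of 19 textbook NF-kB target genes 11 were tested. With TGF-beta1, 4 of the 11 passed the rule downward and 1 upward, and with Osm 1 passed upward, Saa3. Over all genes tested, 4.79% passed downward and 2.27% upward with TGF-beta1, and 0.948% upward with Osm. Their median log2 ratio was -0.63 with TGF-beta1 and 0.15 with Osm. Cxcl5, a neutrophil chemokine, was at 43.0 CPM with Osm, 4.94 CPM with TGF-beta1 and 29.7 CPM with vehicle, and Saa3, an acute-phase protein, at 7.72, 0.543 and 2.39 CPM. Cxcl1, another neutrophil chemokine, and the siderophore-binding Lcn2 were the other 2 lower with TGF-beta1. Cxcl1 had 54, 32 and 73 counts and Lcn2 34, 4 and 20 counts with Osm, TGF-beta1 and vehicle. Saa3 and Lcn2 were under 1 CPM with TGF-beta1 and passed the filter through the other libraries, so the count of 4 is partly set by the filter. Ptgs2, the inducible prostaglandin synthase, was the one higher, at 20.5 CPM with Osm, 48.4 CPM with TGF-beta1 and 18.5 CPM with vehicle, 2.62-fold (2.31 to 2.98). Of the adhesion molecules, Vcam1 was at 94.6 CPM with Osm, 68.0 CPM with TGF-beta1 and 105.4 CPM with vehicle, and Icam1 at 98.8, 53.8 and 83.6 CPM. These genes answer to many pathways besides NF-kB.

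Among 13 genes of ligand shedding and binding, 1 passed the rule upward with TGF-beta1 and 1 downward, and none with Osm, beside 2.27% upward and 4.79% downward with TGF-beta1 and 1.6% in either direction with Osm over all genes tested. Timp3, an inhibitor of the TNF-shedding protease Adam17, was at 166.1 CPM with Osm, 701.6 CPM with TGF-beta1 and 235.6 CPM with vehicle, 2.98-fold higher with TGF-beta1 (2.88 to 3.08). It lies on the opposite strand of Syn3, which was at 4.61, 14.2 and 7.77 CPM. Sdc4, a cell surface proteoglycan, was at 123.8 CPM with Osm, 49.2 CPM with TGF-beta1 and 100.4 CPM with vehicle. Sdc2, another proteoglycan and the most abundant gene of the list, was at 456.9, 409.9 and 484.6 CPM. Adam17 itself was at 92.1 CPM with Osm, 70.5 CPM with TGF-beta1 and 97.3 CPM with vehicle.

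**Figure D5:**
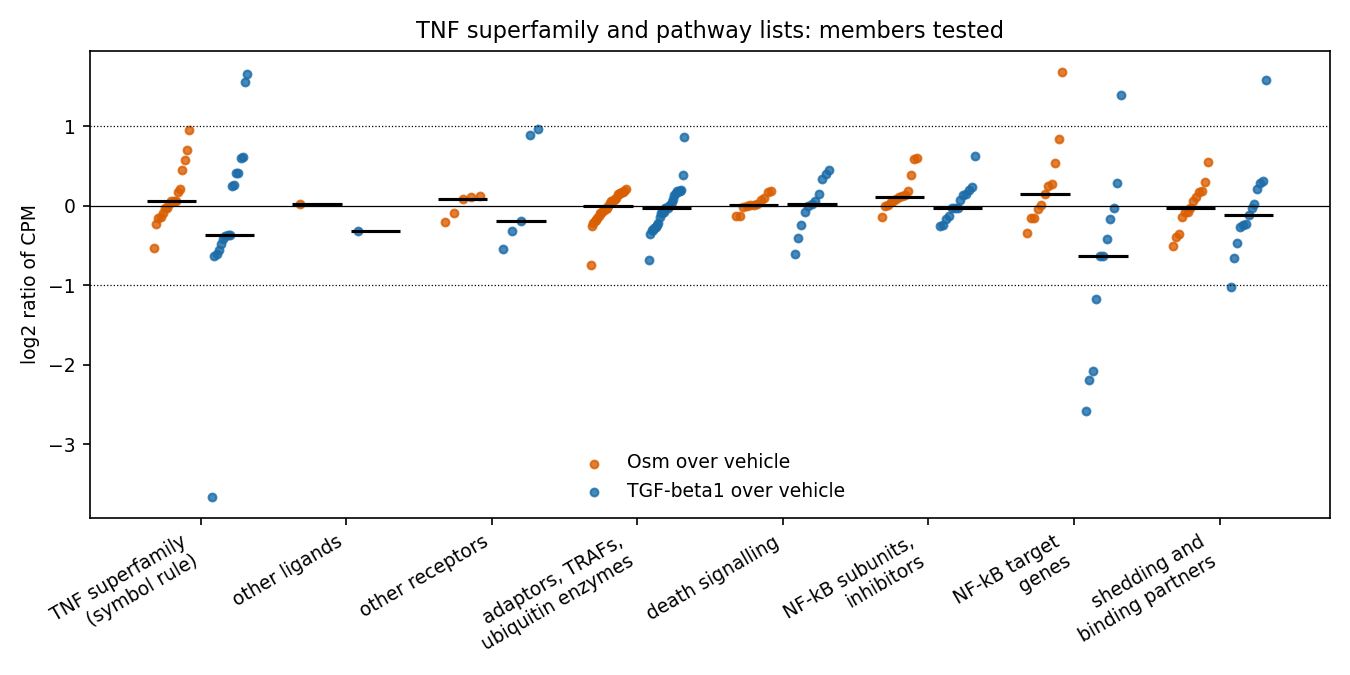
Log2 ratio of CPM over vehicle for each tested gene of the family and of 7 related lists, Osm left and TGF-beta1 right within each list; horizontal bars are medians and dotted lines mark 2-fold. The lowest point is Tnfrsf9 with TGF-beta1 (-3.66), and among the 7 related lists the NF-kB target genes reach furthest below 0 with TGF-beta1 (median -0.63), while the adaptors and death signalling genes stay inside the dotted lines in both comparisons.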

How the data were processed

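RNA sequencing of 3 libraries, 1 per condition, was analysed. The authors deposited a table of counts, whole reads for each gene, and a matching table of FPKM. Build mm39 and, without versions or roles, TopHat2, HISAT, HISAT2 and CASAVA stand in the submitters' processing notes. Per the labels' protocols, polyadenylated RNA was copied with random primers, and library types with and without strand information are both described. No read counter or annotation release is named. The deposited FPKM equal counts per length divided by the DESeq2 size factor times the geometric mean total, within 2.8e-06% over genes with at least 10 counts. Here counts were scaled with TMM factors of edgeR 4.0.16 (R 4.3.3), filtered at 1 CPM in at least 1 library (13712 genes), and compared with a prior count of 0.5. DESeq2 1.42.0 gave alternative factors. Tables were handled with pandas 2.3.3 and numpy 2.4.6, intervals with scipy 1.17.1 and figures with matplotlib 3.10.9, under Python 3.11.15. Intervals are conditional binomial (Clopper-Pearson), compare 2 libraries and not the conditions, and may be too narrow because the reads carry no molecular identifiers. A count of 0 was read as up to 3 counts. The ratio step was tested on simulated data. Every member is accounted for, and from each list were named up to 4 genes past the rule at 5 CPM or more and the 2 most abundant. Cxcl1, Lcn2, Adam17, Cd40lg, Fasl, Cd70 and the marker genes named one by one were chosen after their values were seen. The members and the 14 lists (7 of pathways, 7 of cell types) were chosen with earlier results of these data known. Protein sequences were not used here.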

Additional observations from a re-analysis of the deposited data

How the results depend on the processing

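The calls of family members were the same under DESeq2 size factors, count totals alone and upper-quartile factors, with 0 of the 17 past the rule for Osm over vehicle, 3 for TGF-beta1 over vehicle and 4 for Osm over TGF-beta1. The counts moved with the filter and with the size of difference asked for. A filter at 5 CPM left 1 member past the rule for TGF-beta1 over vehicle and 1 for Osm over TGF-beta1, Tnfrsf11b in both, since Tnfsf15, Tnfrsf9, Tnfsf8 and Tnfsf13 stay under 5 CPM. With no filter 1 member passed for Osm over vehicle, Tnfsf11, on 6 counts against 0. A 1.5-fold rule gave 1 (Tnfsf8), 7 and 8 of the 17 members in the 3 comparisons. Of all 13712 genes tested, 516, 2131 and 2206 passed it, against 219, 968 and 1027 at 2-fold. With no filter 468, 1349 and 1416 of 23539 genes passed the 2-fold rule, beside 1, 3 and 4 of 28 members. At 5 CPM 23, 430 and 451 of 10782 genes passed, beside 0, 1 and 1 of 11 members. Tnfsf13 was lost for Osm over TGF-beta1 with a prior count of 2 and in the deposited FPKM with a pseudocount of 0.1, which gave 3 members each. All 390 values of single members under the settings listed in advance stayed within the counting interval of the value reported and none had another sign. Those under the 1.5-fold rule (51 values), with no filter (51) and with the 5 CPM filter (33) could not differ. These settings leave each ratio as it is. The rest rescaled the same counts or changed the small value added to them, and give no replicate check. Summing Tnfrsf22, Tnfrsf23 and Tnfrsf26, an alternative chosen after seeing the data, gave a log2 ratio of 0.11 for Osm over vehicle, against 0.45 for Tnfrsf26 alone, and of -0.37 for Osm over TGF-beta1, against 0.04 for Tnfrsf26 and -0.60 for Tnfrsf22. The sum weights each gene by its counts, which with Osm were 387 for Tnfrsf26, 628 for Tnfrsf22 and 1085 for Tnfrsf23. The cause of the differences between these genes was not tested. Depth limits the members under 5 CPM, and Tnfrsf9 rests on 2 counts with TGF-beta1. No paired analysis was possible because each condition has 1 library.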
